A study of Mus musculus with 4 samples.

Results

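The genes described here are 10 members of the mouse replication licensing machinery. They are the helicase genes Mcm2, Mcm3, Mcm4, Mcm5, Mcm6, Mcm7 and Mcm8, the initiation factor gene Mcm10 and the loading factors Cdc6 and Cdt1. They were picked by gene name from a list drawn up with earlier results of these data known, and all 10 had a row of their own among the 29286 gene rows of the authors' Cuffdiff2 table. The cells were a conditionally immortalised line of mouse podocytes, which wrap the capillaries of the kidney glomerulus. Their poly-A RNA was sequenced 48 hours after transfection at 50 nM with a mimic of miR-93 in 2 libraries and with a nontargeting (NT) mimic in the other 2. The cells of both groups carried a thermosensitive T antigen, a viral protein that keeps them dividing in the permissive state, and had been differentiated for 12 days before transfection. No strain, age or sex was given in the labels, and the line is a culture model rather than fresh glomerular tissue. The authors deposited 1 pooled FPKM value (a fragment count scaled to transcript length and library size) for each gene and group. Library depth and the spread between the libraries are therefore unknown, no difference below could be tested, and every value is given as a description of these pooled values.

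Eukaryotic cells license each origin of replication before S phase. The origin recognition complex marks the DNA, CDC6 and CDT1 join it, and together they load a ring of MCM2, MCM3, MCM4, MCM5, MCM6 and MCM7, the core of the replicative helicase. MCM10 acts when the loaded helicase is switched on, and MCM8 works with MCM9 as a separate helicase in homologous recombination. Transcription of many of these genes is driven by E2F factors, and cells that leave the cycle usually lose licensing proteins. Mcm7 has a further role in this experiment, because an intron of Mcm7 holds miR-93 with 2 other microRNAs, miR-106b and miR-25. The members therefore include the host gene of the transfected microRNA, and the question asked of them is whether their mRNA levels differed between podocytes given the miR-93 mimic and those given the NT mimic.

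The mature sequences of the Mcm7 intron are shown because the seed, bases 2 to 8 in capitals, sets which mRNAs a microRNA can pair with. They were taken from RefSeq on build GRCm38.p6 and are written 5′ to 3′.
miR-93-5p: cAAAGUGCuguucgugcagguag
miR-106b-5p: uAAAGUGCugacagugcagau
miR-25-3p: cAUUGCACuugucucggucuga
miR-93-5p and miR-106b-5p share the seed AAAGUGC, which miR-25-3p does not. On GRCm38 the 3 hairpins lie on the minus strand of chromosome 5 within intron 13 of the 15-exon Mcm7 transcript, an intron of 748 bases, with the miR-93 hairpin at chr5:138165523-138165610. The deposited table has separate rows for Mir93, Mir106b and Mir25. All 3 are listed at 0 FPKM in miR-93 mimic cells and in NT mimic cells, so the table gives no reading of the mature microRNAs or of the mimic, for which poly-A libraries are not designed.

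The conditions are named only q1 and q2 in the table, and no label says which is which. The row of Rps6ka4 had 9.68 FPKM in q1 and 14.7 FPKM in q2. The study describes this gene as lower under miR-93, so q1 was taken to be the miR-93 mimic. All directions below rest on that reading. Ratios are log2 of FPKM plus 0.1 with the miR-93 mimic over the same with the NT mimic, so a negative value means lower with the miR-93 mimic. The pseudocount of 0.1 shrinks ratios of the weakest genes. With 0.01 FPKM in its place, the log2 ratio of Cdc6 went from −0.07 to −0.10 and that of Mcm10 from 0.10 to 0.13.

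Of the 6 genes of the helicase ring, 5 stood lower and 1 stood higher in miR-93 mimic cells, all by small amounts, against 69.5% of all genes over a floor of 1 FPKM that stood lower. Mcm2 (chr6:88833467-88848774 on mm9, the build of the files), the most abundant, had 9.57 FPKM in miR-93 mimic cells and 11.8 FPKM in NT mimic cells, 1.23-fold lower (log2 ratio −0.29). Mcm3 (chr1:20793094-20810294) had 2.30 FPKM in miR-93 mimic cells and 2.93 FPKM in NT mimic cells, the lowest ratio of the 10 members at 1.26-fold lower (log2 ratio −0.34). These were the only 2 members past a log2 ratio of 0.25 in either direction.

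Mcm7, the host gene of miR-93, had 5.61 FPKM in miR-93 mimic cells and 6.41 FPKM in NT mimic cells, 1.14-fold lower (log2 ratio −0.19). Its row spans 138605816 to 138613090 on chromosome 5 (mm9). The next named row on one side, Cops6, a subunit of the COP9 signalosome, ends 603 bases away and had 71.4 FPKM in miR-93 mimic cells and 84.8 FPKM in NT mimic cells (log2 ratio −0.25). The next on the other side, Ap4m1, which encodes an adaptor subunit for vesicle transport, starts 157 bases away and had 2.85 FPKM in miR-93 mimic cells and 3.07 FPKM in NT mimic cells (log2 ratio −0.11). The ratio of Mcm7 thus lay between those of its neighbours. No row above 0 FPKM overlapped Mcm7 or any other member.

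Mcm6 (chr1:130228167-130256233) had 3.68 FPKM in miR-93 mimic cells and 4.15 FPKM in NT mimic cells (log2 ratio −0.17). Mcm4 (chr16:15623989-15637493), whose product forms the catalytic core of the ring with MCM6 and MCM7, had 6.92 FPKM in miR-93 mimic cells and 7.40 FPKM in NT mimic cells (log2 ratio −0.09). That ratio almost equals the median of all genes given below. Mcm5 (chr8:77633426-77652338) was the exception of the ring, with 2.28 FPKM in miR-93 mimic cells and 1.99 FPKM in NT mimic cells, 1.14-fold higher (log2 ratio 0.19).

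The 6 ring subunits enter the complex in equal numbers, but their mRNA levels were unequal in these cells. FPKM is per length of transcript, so levels can be set beside each other. Their order was the same with either mimic, Mcm2, Mcm4, Mcm7, Mcm6, Mcm3 and Mcm5 from high to low. The level of Mcm2 was 4.20 times that of Mcm5 in miR-93 mimic cells and 5.92 times in NT mimic cells. Mcm3 and Mcm5 were close to level with the miR-93 mimic, at a ratio of 1.01, against 1.47 with the NT mimic. Summed over the 6 genes, FPKM came to 30.4 in miR-93 mimic cells and 34.6 in NT mimic cells, a log2 ratio of −0.19 without pseudocount. Mcm5 made up 7.50% of this sum in miR-93 mimic cells and 5.74% in NT mimic cells. Whether neighbours in the order differ beyond the spread between libraries cannot be said from pooled values.

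**Figure D1:**
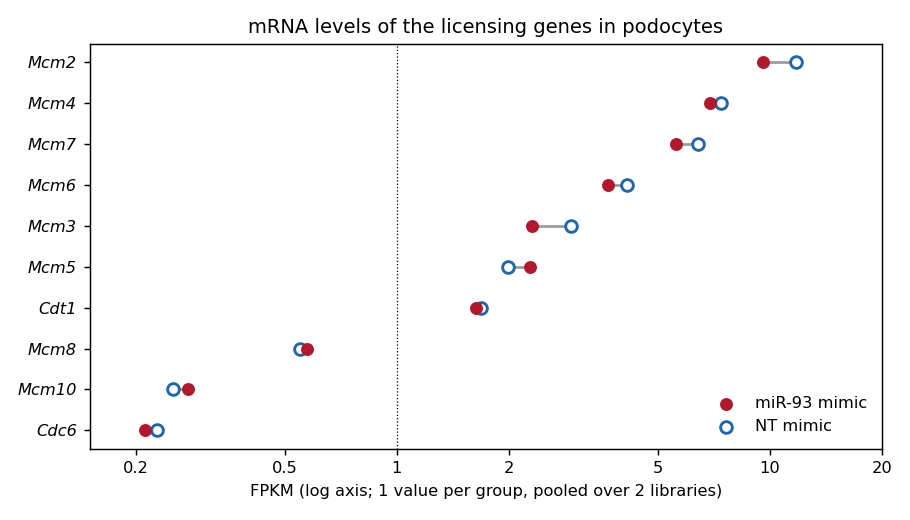
FPKM (log axis) of the 10 genes, 1 pooled value per group, with filled points for the miR-93 mimic and open points for the NT mimic; the dotted line marks an FPKM of 1. Mcm2 lies highest, at 9.57 in miR-93 mimic cells and 11.8 in NT mimic cells, Cdc6 lies lowest, at 0.211 and 0.227, and Mcm5 is the ring subunit whose filled point lies to the right.

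The 4 members outside the ring were scarcer than all 6 ring genes and nearly level between the mimics. Cdt1 (chr8:125080880-125097030), which delivers the ring to the origin, had 1.63 FPKM in miR-93 mimic cells and 1.68 FPKM in NT mimic cells (log2 ratio −0.05). Cdc6 (chr11:98769202-98785256), its ATPase partner, had the lowest level of the 10, with 0.211 FPKM in miR-93 mimic cells and 0.227 FPKM in NT mimic cells (log2 ratio −0.07). Mcm10 (chr2:4911769-4933837) had 0.276 FPKM in miR-93 mimic cells and 0.251 FPKM in NT mimic cells (log2 ratio 0.10). Mcm8 (chr2:132642070-132669933) had 0.575 FPKM in miR-93 mimic cells and 0.550 FPKM in NT mimic cells (log2 ratio 0.05). Cdc6, Mcm10 and Mcm8 fell short of the mean FPKM of 1 that was asked of a gene before it entered a count, although the authors' table gives all 10 members the status OK, that is, enough reads for its own test.

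The size of these ratios was set beside all genes. Of 25120 named genes in the table, 10773 averaged at least 1 FPKM across both groups, and their median log2 ratio was −0.09. Of the 10 members, 7 met the same floor, with a median log2 ratio of −0.17. None of the 7 was lower by a log2 ratio of at least 0.5, the size named in the study's methods, against 3.77% of all genes over the floor, and none was higher by 0.5, against 1.83%. At a log2 ratio of at least 0.25, 2 of the 7 were lower (Mcm2 and Mcm3), against 17.4% of all genes, and none was higher, against 6.12%. Relative to the median of all genes, 5 of the 7 lay below it and 2, Cdt1 and Mcm5, above it, so the direction of Cdt1 turns with this centring, to a log2 ratio of 0.04. That of Cdc6, under the floor, turns to 0.02.

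The position of a single member among all genes shows how common such a ratio was. Of the genes over the floor, 13.0% had a lower ratio than Mcm2 and 26.8% a lower ratio than Mcm7. Mcm5 stood near the opposite end, with 91.1% of genes below it. Ratios scattered more among weak genes. In the band of mean FPKM from 5 to 20, which holds Mcm2, Mcm4 and Mcm7, the central range from the 5th to the 95th percentile ran from −0.43 to 0.23 over 4298 genes. In the band from 1 to 5, which holds Mcm3, Mcm5, Mcm6 and Cdt1, it ran from −0.49 to 0.48 over 2975 genes. In the band from 0.2 to 1, which holds Cdc6, Mcm8 and Mcm10, it ran from −0.53 to 1.40 over 1912 genes. Each of the 10 members lay inside the range of its band.

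**Figure D2:**
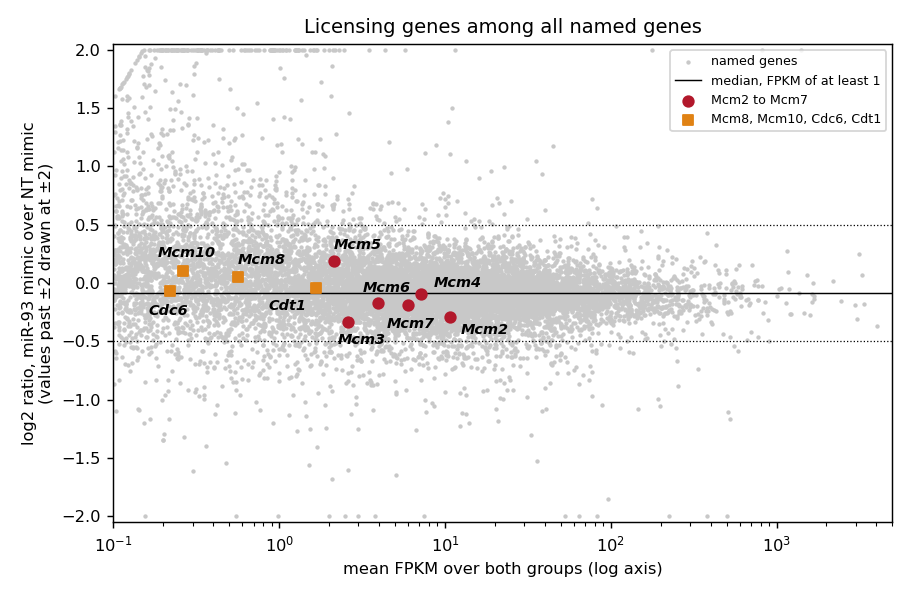
Log2 ratio, miR-93 mimic over NT mimic, against mean FPKM (log axis) for named genes at a mean FPKM of at least 0.1, in grey, with ring subunits as circles and the other 4 members as squares; the solid line is the median of genes over the floor (−0.09) and dotted lines mark log2 ratios of 0.5. All 10 members lie between the dotted lines, from −0.34 for Mcm3 to 0.19 for Mcm5.

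Matches to the miR-93 seed were then sought in the longest annotated 3′ UTR of each member (GENCODE M21, GRCm38, matched by symbol). A microRNA pairs with mRNA through its seed, and a match of 8 bases (8mer) is usually more effective than one of 7 (7mer-m8, which pairs through base 8, or 7mer-A1, which ends in an A) or 6 (6mer). Of the 10 members, 2 held a match of 7 or 8 bases, Mcm3 and Mcm7, and another 2, Cdc6 and Mcm5, held a 6mer. Among all genes over the floor with a 3′ UTR, 22.5% held a match of 7 or 8 bases and 42.2% one of 6 or more, close to the share among the members. The sites are shown with the bases that match the seed, and any terminal A, in capitals and up to 11 bases on either side.
Mcm3, 8mer: cccacccccagGCACTTTAgtccaggaagc
Mcm7, 7mer-m8: tctcccatgctGCACTTTtttattctgcc
Cdc6, 6mer: atactctctcaCACTTTgcctcagggtt
Mcm5, 6mer: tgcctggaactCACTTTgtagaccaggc
The 8mer of Mcm3 lies at bases 284 to 291 of a 3′ UTR of 488 bases. The site of Mcm7 lies at bases 82 to 88 of a 3′ UTR of 136 bases, the shortest of the 10, so the mRNA of the host gene itself holds a match to the seed of the microRNA in its intron. The site of Mcm7 was also present in its shortest annotated 3′ UTR, whereas the 6mers of Cdc6 and Mcm5 were absent from theirs. Matches are descriptions of sequence, and binding to them was not measured in these libraries.

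The 2 members with a match of 7 or 8 bases lay near the middle of the genes with the same class of site. The 460 genes with an 8mer had a median log2 ratio of −0.26, and 39.8% of them had a lower ratio than Mcm3 (log2 ratio −0.34). A 7mer-m8 was the best site of 1052 genes, with a median of −0.14, and 38.7% of them had a lower ratio than Mcm7 (log2 ratio −0.19). The 5791 genes without a match had a median of −0.08. Among these stood Mcm2, which had no match, with 9.77% of the class at a lower ratio than its log2 ratio of −0.29. The 3′ UTR of Mcm2 that was searched had 526 bases, and the part of miR-93 in the Mcm2 ratio was not tested. Mcm4, Mcm6, Cdt1, Mcm8 and Mcm10 also held no match in their longest 3′ UTR. In coding sequence, Mcm10 was the 1 member with a match of 7 or 8 bases, and 11.9% of all genes over the floor had such a match.

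**Figure D3:**
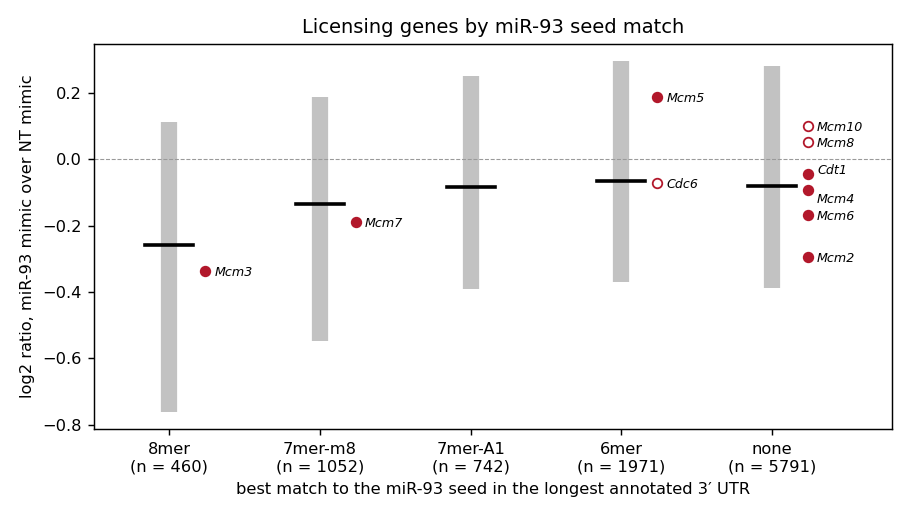
Log2 ratio, miR-93 mimic over NT mimic, by the best seed match in the longest 3′ UTR; grey bars run from the 5th to the 95th percentile and black lines mark the median of the genes over the floor in each class (n below), and circles are the 10 members, open where the mean FPKM is under 1. Mcm3 at −0.34 lies below the 8mer median of −0.26, and Mcm7 at −0.19 below the 7mer-m8 median of −0.14.

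Most members shared a feature of their promoters. E2F factors bind words such as TTTCGCGC, TTTGGCGC and TTTCCCGC, which were sought on both strands in RefSeq promoter windows (GRCm38.p6) from 250 bases before to 50 bases after each start site. A window was found for 9 members, all but Mcm4, and 7 of the 9 held at least 1 of the 3 words, namely Mcm3, Mcm5, Mcm6, Mcm7, Mcm8, Cdc6 and Cdt1. Of all 32851 windows, 1.84% held one, as did 4.22% of the genes over the floor that have a window. Mcm2 and Mcm10 held none of these words in their windows. Mcm7 had 2 windows, of which chr5:138171834-138172133 held 2 words and chr5:138171217-138171516 held 0. The words that lie before the start site are printed in capitals with 11 bases on either side, read along the gene's strand.
Mcm6 (chr1:128359797-128359826): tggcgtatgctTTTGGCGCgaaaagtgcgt
Mcm6 (chr1:128359734-128359763): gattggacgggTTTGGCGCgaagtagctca
Mcm5 (chr8:75109345-75109374): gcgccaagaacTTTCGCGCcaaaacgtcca
Mcm7 (chr5:138172030-138172059): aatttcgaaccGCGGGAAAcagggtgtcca
Cdc6 (chr11:98908002-98908031): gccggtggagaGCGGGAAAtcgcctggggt
In the Mcm6 window the word 110 bases before the start site overlaps TTTCGCGC on the opposite strand, and in the Mcm5 window the word 153 bases before it overlaps TTTGGCGC on the opposite strand. The Mcm7 and Cdc6 words are TTTCCCGC on the opposite strand. The ratios of the 7 genes with a word ran from −0.34 for Mcm3 to 0.19 for Mcm5. Mcm5 and Mcm6, which both hold TTTCGCGC and TTTGGCGC, stood at 0.19 and −0.17. The part of these words in the ratios was not tested.

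The other genes of the licensing and firing pathway had list medians near 0, with single genes on either side. The origin recognition genes, listed in the table under older symbols, had 5 of 6 over the floor with a median log2 ratio of −0.06. The largest ratios among them were −0.10 for Orc6, 0.09 for Orc4 and −0.09 for Orc3, and none passed 0.25. Orc6 had 11.7 FPKM in miR-93 mimic cells and 12.5 FPKM in NT mimic cells. Genes that control licensing had 8 of 10 over the floor, with a median of −0.02 and 1 gene past 0.25 in each direction. Ccnf, the F-box protein cyclin F, had 1.57 FPKM in miR-93 mimic cells and 1.16 FPKM in NT mimic cells (log2 ratio 0.40). Cul4a, the cullin of the ligase that degrades CDT1, had 49.9 FPKM in miR-93 mimic cells and 59.5 FPKM in NT mimic cells (log2 ratio −0.25). Geminin (Gmnn), the protein that holds CDT1 inactive, had 2.54 FPKM in miR-93 mimic cells and 2.92 FPKM in NT mimic cells (log2 ratio −0.19).

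The genes that turn the loaded ring into a working helicase, CDC45, the GINS subunits and the kinases and cyclins of firing, had 10 of 16 over the floor and a median log2 ratio of 0.01. Cyclin E1 (Ccne1) had 1.97 FPKM in miR-93 mimic cells and 2.43 FPKM in NT mimic cells (log2 ratio −0.29). Cyclin A2 (Ccna2) had 2.28 FPKM in miR-93 mimic cells and 1.88 FPKM in NT mimic cells (log2 ratio 0.27). The third largest ratio was −0.11, for Mtbp, a partner of the firing factor Ticrr. Over the origin, control and firing lists together, 23 of 32 genes met the floor. None of them was past a log2 ratio of 0.5, and at 0.25 there were 2 lower and 2 higher, against 17.4% lower and 6.12% higher among all genes.

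At the replication fork, 25 of 30 genes were over the floor with a median log2 ratio of 0.01, of which 14 stood above 0 and 11 below. Lower by at least 0.25 were 3, a smaller share than the 17.4% of all genes, and none was higher. Rrm2, the ribonucleotide reductase subunit that supplies deoxynucleotides in S phase, had 18.9 FPKM in miR-93 mimic cells and 26.0 FPKM in NT mimic cells (log2 ratio −0.46). The next were Tipin, of the fork protection complex, at −0.31 and the clamp loader gene Rfc3 at −0.26. The list of mitosis and cycling markers had 8 genes over the floor, with a median of 0.31. Of these, 5 were higher by at least 0.25, against 6.12% of all genes. The 8 were weak genes, with a mean FPKM from 1.03 to 3.33. In the band from 1 to 5 the 95th percentile of all ratios was 0.48, against 0.23 in the band from 5 to 20. The share of genes higher by 0.25 within the weaker band was not counted. Cdc20, an activator of the anaphase-promoting complex, had 3.48 FPKM in miR-93 mimic cells and 2.00 FPKM in NT mimic cells (log2 ratio 0.77), and was the 1 gene over the floor in these lists past 0.5. Birc5 (survivin) and the kinase gene Plk1 followed at 0.49 and 0.47 among genes over the floor. General markers of cycling cells in the same list lay nearer 0, with Mki67 at 0.07, Cdk1 at 0.04 and Top2a at −0.11. Under the floor, Bub1b of the mitotic checkpoint stood at 0.75 and Recql4 of the firing list at 0.58. These 5 genes were named after their values were seen. The part of cell cycle stage in the values of the ring genes was not tested. In bulk RNA, a change in the share of cycling cells cannot be told apart from a change in mRNA per cell.

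**Figure D4:**
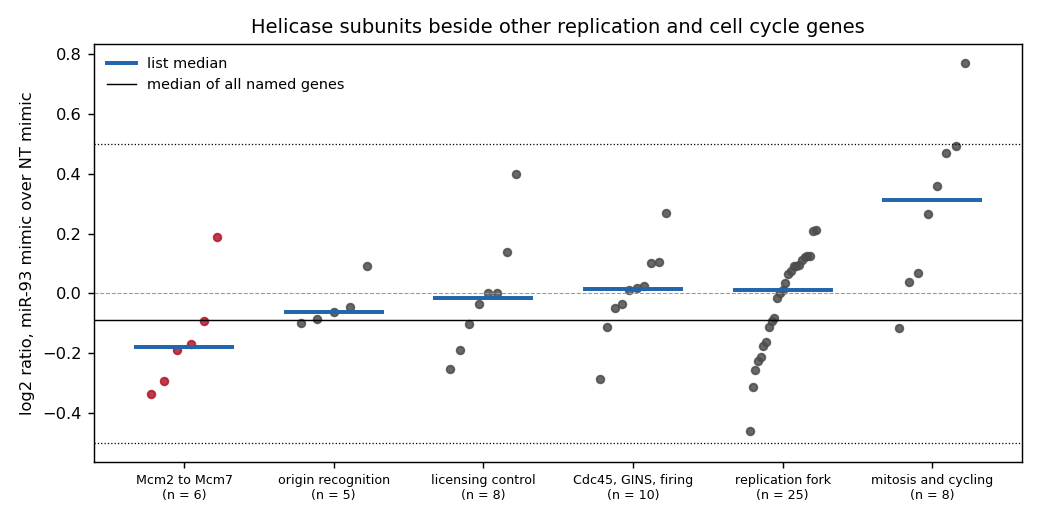
Log2 ratio, miR-93 mimic over NT mimic, of each gene over the floor in 6 lists (n under each name), with list medians in blue, the median of all named genes as a solid line and log2 ratios of 0.5 as dotted lines. The 6 ring genes have a median of −0.18, the other replication lists lie between −0.06 and 0.01, and the mitosis and cycling list lies at 0.31.

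The labelled cell type was checked against its markers. Of 10 podocyte markers, 5 were over the floor. Synaptopodin (Synpo) had an FPKM of 158 with either mimic, and Cd2ap 36.3 in miR-93 mimic cells and 42.7 in NT mimic cells (log2 ratio −0.23). Wt1 stood at a log2 ratio of 0.51 and Podxl at −0.47, both at low levels. Nphs1 (nephrin), a defining gene of the slit diaphragm, was near 0, at 0.164 FPKM in miR-93 mimic cells and 0.0387 FPKM in NT mimic cells. Tcf21 was listed at 0 in both. The 4 endothelial markers summed to 0.242 FPKM in miR-93 mimic cells and 0.221 FPKM in NT mimic cells. Genes of other lists were present. Among them were Pdgfrb (log2 ratio 0.05) and Des (0.75) of mesangial cells, Lrp2 (−0.58) of tubule and Cd68 (0.45) of leukocytes. The study also uses desmin (Des) as a marker of podocyte injury. The rest of those lists stood under the floor. Pdgfra had 0.0315 FPKM in miR-93 mimic cells and 0.0127 FPKM in NT mimic cells, and Itga8 0.0149 and 0.0109. In the same order Aqp2 had 0.366 and 0.564, Slc34a1 0.00624 and 0, Slc12a3 0.00309 and 0.00649, and Umod 0 in both. Ptprc, which marks leukocytes as a class, had 0.0332 FPKM in miR-93 mimic cells and 0.014 FPKM in NT mimic cells. The part of these other lists in the values of the licensing genes was not tested.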

How the data were processed

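The submitters' processing notes name FastQC, Trimmomatic, TopHat2 2.0.4, Cufflinks and Cuffdiff, with mm9 as the genome build. Versions of the other tools were not given in the sources used. The deposited FPKM values were normalised and pooled over the 2 libraries of a group by the authors, so depth is unknown. The table also holds the authors' fold changes, test statistics, p- and q-values, and 4 shorter sheets hold selections of them. None of these was used.

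The members and gene lists were chosen with earlier results of these data known. Of 29286 rows, 3650 without a name, 287 with several genes and 28 with a date or number as name were left out, and a gene with several rows was given its highest. Of 114 list entries, 10 matched by an older symbol and 1 (Foxm1) did not match. Ratios used a pseudocount of 0.1 FPKM and counts a mean FPKM of at least 1. Named beside the members were the miRNA rows and neighbours of Mcm7 and, per list, the 3 genes over the floor with the largest absolute ratio. Other podocyte and leukocyte genes were named as defining markers, and other mesangial and tubule genes as the rest of their lists. In 3′ UTRs of at least 30 bases, seed matches were sought for 10016 genes (93.0% of those over the floor). Other pseudocounts, floors, folds, centring, UTRs and motif sets were tried. Python 3.11.15 with pandas 2.3.3 and numpy 2.4.6 was used, and the ratio and site functions were tested on simulated data.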

Additional observations from a re-analysis of the deposited data

How the results depend on the processing

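Neither the median of the members nor the count past a log2 ratio of 0.5 turned under another pseudocount, floor, status filter or centring. The median ran from −0.19 (3 members at a floor of 5) to −0.08 (centred, or all 10 members without a floor), and 0 members passed 0.5 or 1 in each setting, while 2 were lower at 0.25. Centring on the median of all genes moved every ratio by 0.09, which left Cdc6 at 0.02 and Cdt1 at 0.04, the 2 of 40 recomputed member values whose sign turned, and Mcm4 at −0.0061. It also set the split of all genes past 0.5 at 2.39% lower and 2.51% higher, against 3.77% and 1.83%. Summing a gene's rows changed no member, since each has 1 row. List medians near 0 turned: centring gave 0.026 for origin recognition and 0.071 for licensing control, dropping the floor gave −0.0016 for firing and −0.0029 for the fork, and a floor of 5 gave −0.094 for the fork. Values were taken as moved when they turned sign or shifted by over 0.1. With 6mers counted, 4 members held a seed match in place of 2 (42.2% of all genes in place of 22.5%). With 2 E2F words, 6 members held one in place of 7 (0.813% of all windows in place of 1.84%). No paired analysis was possible because the columns hold 1 pooled value per group, and no library could be left out for the same reason.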
